A study of Drosophila melanogaster with 6 samples.

Results

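Mitochondrial ribosomal proteins are the nuclear-encoded proteins of the ribosome inside mitochondria, and in the fruit fly Drosophila melanogaster most carry a symbol that begins with mRpL (large subunit) or mRpS (small subunit). All genes with such a symbol in the deposited expression table were taken, which gave 72 of 17807 genes, 47 of the large subunit and 25 of the small subunit. The 72 genes lie on every major chromosome arm, with 21 on 3R, 16 on 3L, 12 on 2R, 12 on 2L and 11 on X. mRpS5 was not analysed here. The small-subunit proteins tko and bonsai carry other symbols and are given separately.

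RNA-seq was done on body wall muscle preparations of late third-instar larvae, about 90 h old, as 3 libraries in each of 2 groups, each from a pool of 7 to 10 larvae. The knockdown group carried UAS-dcr2;;Dmef2-Gal4>UAS-tmodRNAi, in which the muscle driver Dmef2-Gal4 expresses a hairpin against tropomodulin (tmod), which sits on the pointed end of each thin filament and sets its length. The control group carried UAS-dcr2;;Dmef2-Gal4>UAS-mCherryRNAi, a hairpin against a fluorescent protein that flies lack. Both groups therefore shared the Dcr-2 transgene and the driver, the controls were not driver-free animals, and 1 field of the labels calls the tissue adult where the others describe larvae.

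The mitochondrial ribosome translates only the few mRNAs of the mitochondrial genome, which encode core subunits of the respiratory chain and of ATP synthase. Its proteins are made in the cytosol and imported, whereas its ribosomal RNAs are transcribed inside the organelle, so assembly draws on both genomes. The large subunit holds the peptidyl transferase centre, which joins amino acids, and the tunnel through which the nascent chain leaves towards the inner membrane. The small subunit binds the mRNA and reads its codons. Some of the proteins descend from bacterial ribosomal proteins and others were added in mitochondria. Muscle is rich in mitochondria and depends on the respiratory chain that this ribosome helps to build.

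Values are the authors' normalized counts, that is, reads per gene divided by 1 scaling factor per library, and the libraries held 83824273 to 110151028 reads. Log2 fold changes (tmodRNAi minus mCherryRNAi, on log2(normalized count + 1)), their standard errors (SE) and adjusted p-values come from limma, with a Benjamini-Hochberg adjustment over the 10969 genes that had a mean of at least 10 normalized counts. The threshold was an adjusted p of 0.05. tmod itself had 70528, 92366 and 75101 normalized counts in the controls and 13993, 13734 and 12980 in the knockdown, or 17.1% of the control mean (log2 fold change -2.54, SE 0.12, adjusted p 0.0045). Control replicate 1 stood apart: across genes its Pearson correlation was 0.957 and 0.969 with the other controls and 0.975 with knockdown replicate 1. The summed level of 18 muscle markers ran from 2975130 to 8567990 normalized counts in the controls, with control 1 the highest, and from 13016900 to 14579900 in the knockdown, and none of these markers was at 0. Nothing in the labels says that replicates of a group came from separate crosses, so p-values measure the spread between these pools.

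mRNAs of both subunits were, on the deposited scale, about 1.2 times as abundant in the knockdown preparations as in the control preparations. No member was called lower. In counts of genes, rose and fell mean past the threshold. In the large subunit 9 of the 46 genes tested rose and 0 fell. That is 19.6%, where among all tested genes 23.8% were called, 10.9% higher and 12.9% lower. In the small subunit 5 of 25 rose and 0 fell, or 20.0%. The direction was broader than the calls: 44 of 46 large-subunit genes and 25 of 25 small-subunit genes had a log2 fold change above 0, as did 51.5% of all tested genes. In bulk samples such as these, a smaller share of muscle cells in the controls and less RNA per muscle cell cannot be told apart. The part that muscle content plays in the higher level was not tested.

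Summed over its genes, the large subunit had 34638, 30736 and 31750 normalized counts in control replicates 1, 2 and 3, and 38217, 38275 and 41217 in knockdown replicates 1, 2 and 3. The group means were 32375 ± 2024 and 39236 ± 1716 (SD, n = 3), a ratio of 1.21. The small subunit had 19587, 17502 and 17823 in the controls and 21861, 21246 and 22993 in the knockdown, with means of 18304 ± 1123 and 22033 ± 886 (SD, n = 3) and a ratio of 1.20. For both subunits every knockdown library lay above every control library, knockdown replicate 3 was the highest and control replicate 1 was the highest control. The large subunit's sum divided by the small subunit's was 1.77, 1.76 and 1.78 in the controls and 1.75, 1.80 and 1.79 in the knockdown. These ratios overlapped (1.77 ± 0.01 against 1.78 ± 0.03, SD, n = 3, two-sided exact permutation p = 0.6, where 0.1 is the smallest that 3 against 3 can give). The sums follow the gene symbols, so mRpS30 and mRpS18A were counted in the small subunit. In mammals the counterparts of both lie in the large subunit. mRpS30 alone had 1476 to 1989 normalized counts in the controls and 2385 to 2600 in the knockdown. Whether the ratios still overlap with both genes moved was not tested.

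**Figure D1:**
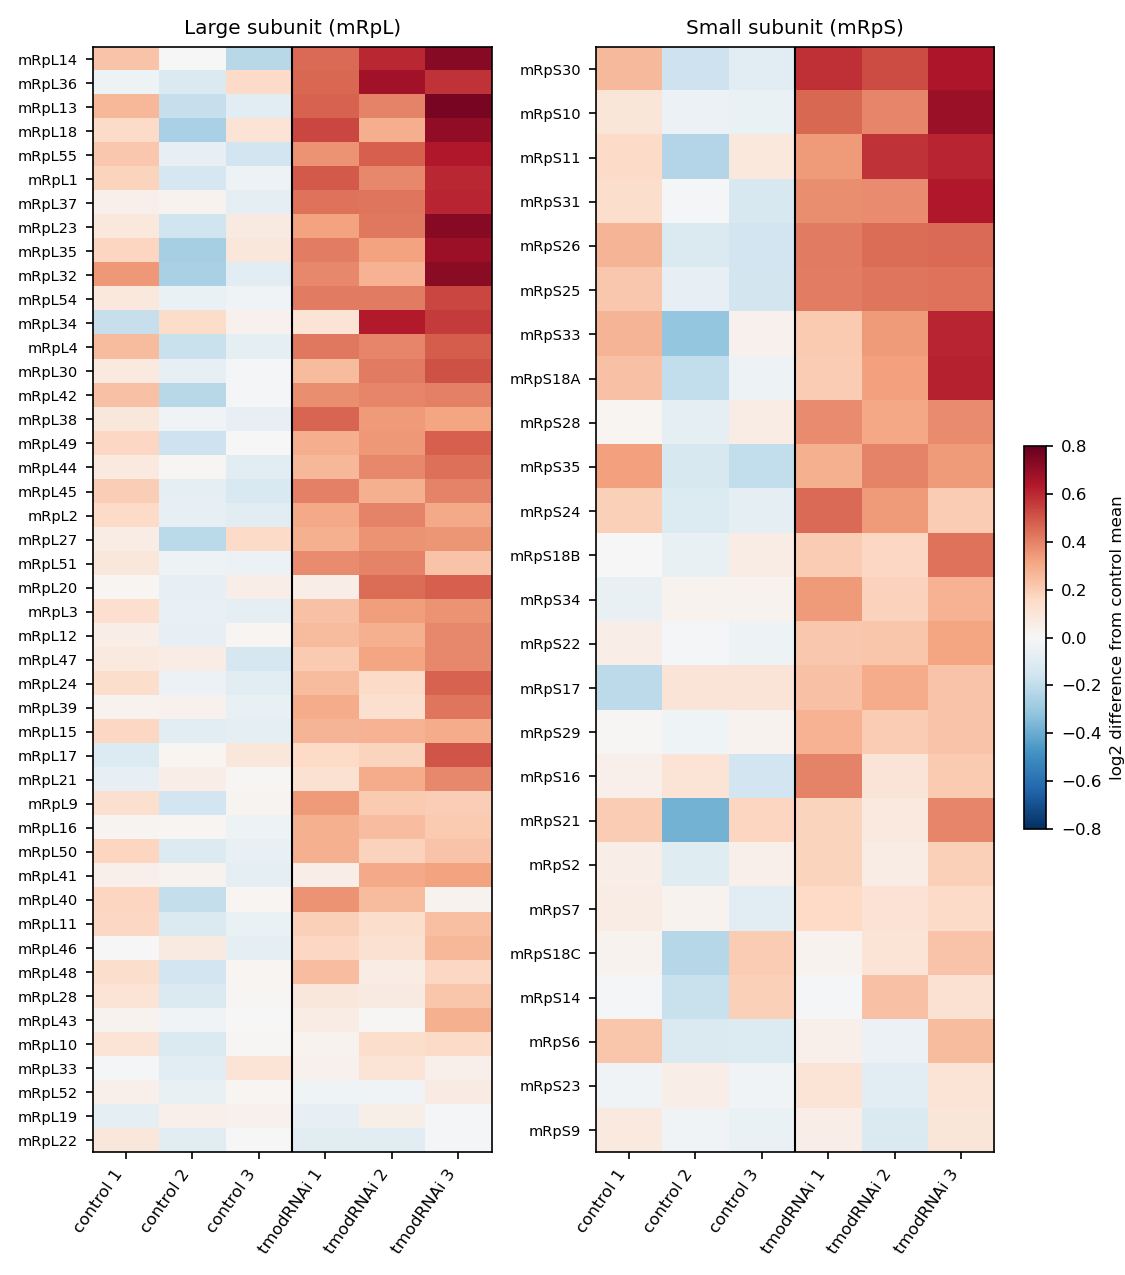
Level of each member in each of the 6 libraries, as the log2 difference from that gene's mean over the controls, with the 46 large- and 25 small-subunit genes tested drawn separately in rows, ordered by log2 fold change. The knockdown columns are above 0 for most genes, knockdown replicate 3 most often, and control replicate 1 lies above control replicate 2 for most genes.

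Gene by gene, 34 of the 46 large-subunit genes (73.9%) and 15 of the 25 small-subunit genes (60.0%) had all 3 knockdown values above all 3 control values, which held for 25.0% of all tested genes. None had all knockdown values below the controls, as 26.4% of all tested genes did; the groups were apart in one direction or the other for 51.4%. The median log2 fold change was 0.32 in the large subunit (middle 50% of genes 0.23 to 0.43, range -0.06 to 0.60) and 0.27 in the small subunit (0.14 to 0.39, range 0.01 to 0.59). Over all tested genes it was 0.02. The changes were small and close together: their SD over the 71 members tested was 0.16. The members' fold changes followed neither level nor length closely, with Pearson correlations across the 71 genes of -0.21 with log2 mean level and -0.01 with log2 exon length. Those points share libraries, and no test was made on them.

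**Figure D2:**
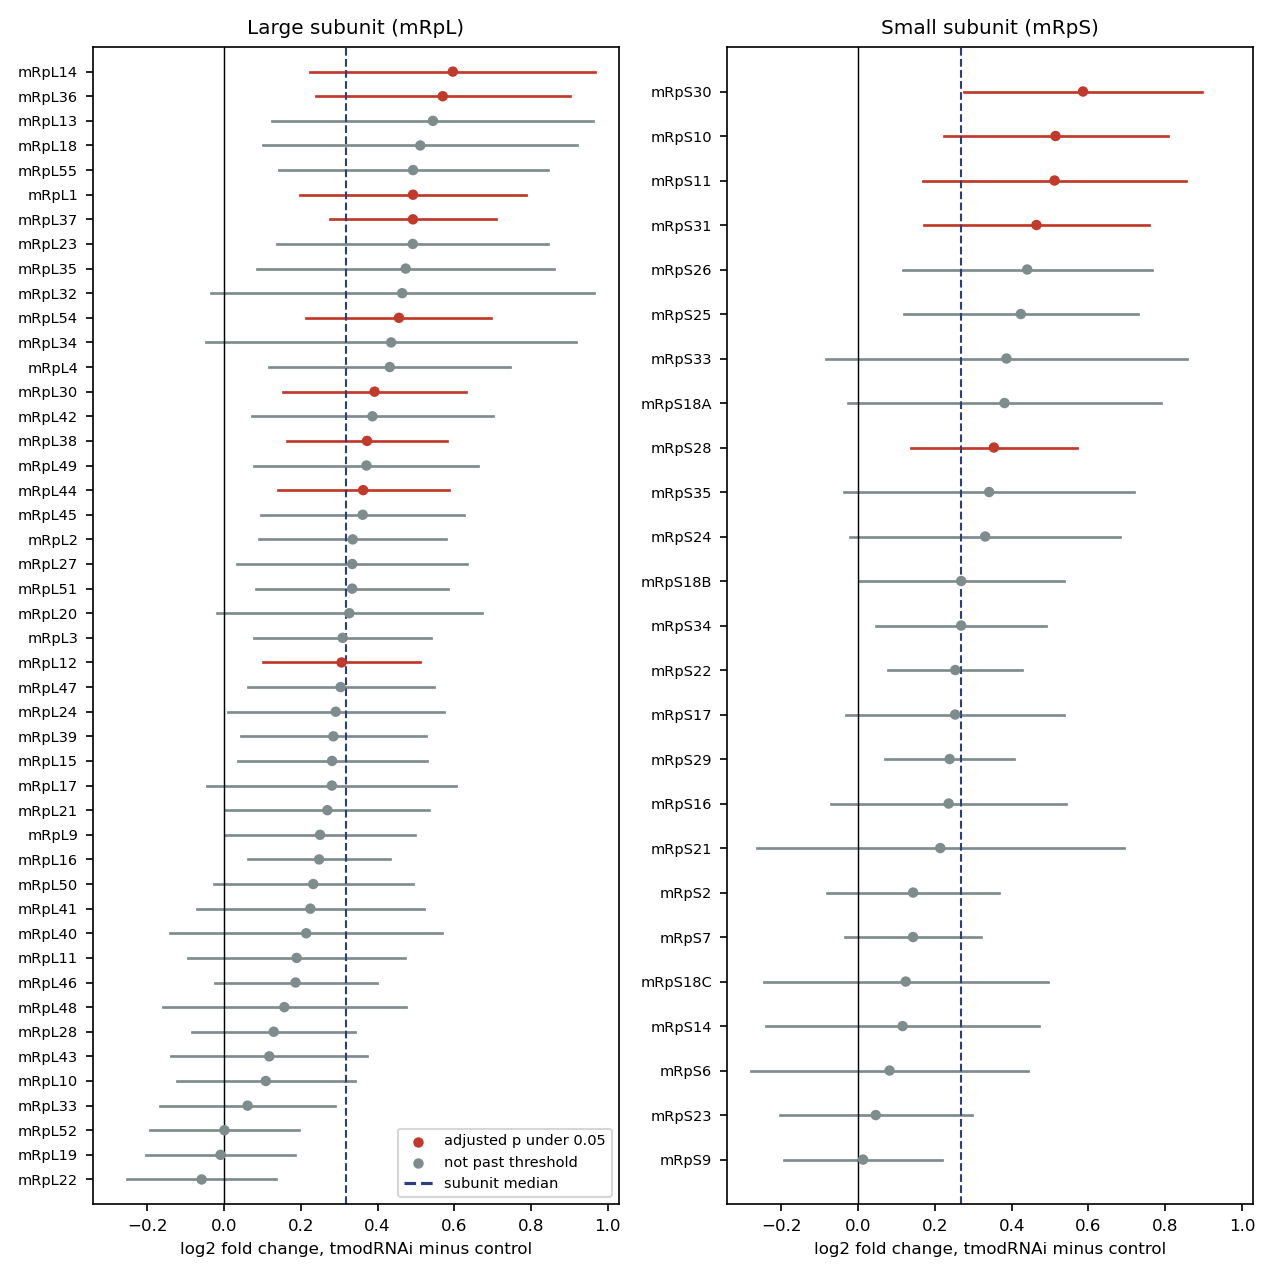
Log2 fold change, knockdown minus control, of every tested member with its 95% confidence interval, the large and the small subunit shown separately and genes that passed the threshold marked. The 46 large-subunit values run from -0.06 to 0.60 and the 25 small-subunit values from 0.01 to 0.59.

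Among the large-subunit genes past the threshold, the 4 with the largest rises were mRpL14, mRpL36, mRpL37 and mRpL1. mRpL13 (0.54, adjusted p 0.0629), mRpL18 (0.51, adjusted p 0.0687) and mRpL55 had differences at least as large as the last of these without passing. Of the exon bases of mRpL13, 35.2% lie within CG10602 on the same strand. mRpL14 (chromosome X, 2343997 to 2344649, minus strand, dm6) encodes the counterpart of bacterial L14, which lies on the face that meets the small subunit. It had 367, 313 and 268 normalized counts in the controls and 430, 477 and 519 in the knockdown (log2 fold change 0.60, SE 0.15, adjusted p 0.0422). The groups did not overlap, and the lowest knockdown value stood well clear of the highest control. mRpL36 (3L, 8124584 to 8125132, minus strand) encodes the counterpart of the small zinc-binding bacterial protein L36. Its values were 174, 166 and 200 in the controls and 247, 287 and 268 in the knockdown (0.57, SE 0.14, adjusted p 0.0377), again without overlap.

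mRpL37 (3R, 10782563 to 10784092, minus strand) encodes a protein with no bacterial counterpart. It had 918, 907 and 848 normalized counts in the controls and 1204, 1199 and 1361 in the knockdown (0.49, SE 0.09, adjusted p 0.0306). The groups did not overlap. mRpL1 (3R, 8301440 to 8302770, plus strand) encodes the protein of the mobile L1 stalk, which in bacteria helps spent tRNA leave the ribosome. Its values were 598, 480 and 513 in the controls and 741, 689 and 804 in the knockdown (0.49, SE 0.12, adjusted p 0.039). The other large-subunit genes that rose were mRpL54, mRpL30, mRpL38, mRpL44 and mRpL12, with log2 fold changes of 0.46, 0.39, 0.37, 0.36 and 0.31.

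Only some large-subunit genes were placed in a position group, and of those that rose only mRpL1, mRpL12 and mRpL38 were. How the rises spread over the subunit can therefore not be told. mRpL12, the stalk protein that recruits translation factors to the ribosome, had 800, 735 and 779 normalized counts in the controls and 917, 939 and 1007 in the knockdown (0.31, SE 0.08, adjusted p 0.0479). mRpL10, which anchors mRpL12 to the body of the subunit, had 914, 781 and 854 in the controls and 864, 936 and 945 in the knockdown (0.11, 95% confidence interval -0.12 to 0.34, adjusted p 0.408). The mRpL12 groups were separate, whereas the mRpL10 groups overlapped. Whether these neighbours differ in their change was not tested.

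Of the 3 proteins around the peptidyl transferase centre (mRpL2, mRpL3, mRpL16), 0 passed, with a median of 0.31. mRpL3 had 1001, 873 and 863 normalized counts in the controls and 1069, 1147 and 1169 in the knockdown (0.31, SE 0.09, adjusted p 0.059). All 3 of its knockdown values were the higher ones, and it missed the threshold narrowly. Of the 7 genes for proteins of the exit tunnel, 0 passed, with a median of 0.30.

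At that tunnel, mRpL23, whose bacterial counterpart sits at the opening, had 427, 360 and 423 in the controls and 504, 540 and 667 in the knockdown (0.49, SE 0.14, adjusted p 0.0546). mRpL45, which in mammals holds the ribosome to the inner membrane, had 1433, 1185 and 1146 in the controls and 1649, 1520 and 1646 in the knockdown (0.36, SE 0.11, adjusted p 0.057). Both sets of libraries were separate without passing. Of the 6 genes of the central protuberance, the crown of the subunit, 1 passed (mRpL38), with a median of 0.27. mRpL55 had 386, 317 and 298 in the controls and 425, 463 and 517 in the knockdown, without overlap (0.49, SE 0.14, adjusted p 0.0535). Proteins kept from bacteria and those added in mitochondria had medians of 0.32 (5 of 30 rose) and 0.31 (4 of 16).

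In the small subunit the 4 largest rises past the threshold were those of mRpS30, mRpS10, mRpS11 and mRpS31. mRpS30 (X, 15786047 to 15788288, plus strand) carries a small-subunit symbol, but its mammalian counterpart was found in the large subunit. It had 1989, 1476 and 1556 normalized counts in the controls and 2492, 2385 and 2600 in the knockdown (0.59, SE 0.13, 95% confidence interval 0.28 to 0.90, adjusted p 0.0338). Grouped by symbol, it was the 1 member of either subunit whose interval lay wholly above its subunit's median. The margin was narrow: the interval began at 0.276, against a small-subunit median of 0.268. The large-subunit median, 0.318, lay inside the interval. Control replicate 1 was well above the other controls and still below each knockdown library.

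mRpS10 (3R, 15229665 to 15230516, plus strand), a protein of the subunit's head, had 407, 368 and 366 normalized counts in the controls and 522, 499 and 613 in the knockdown (0.51, SE 0.12, adjusted p 0.0365). mRpS11 (3R, 17072732 to 17073795, plus strand), a protein of the platform, had 754, 574 and 716 in the controls and 859, 1013 and 1034 in the knockdown (0.51, SE 0.14, adjusted p 0.0473). mRpS31 (3L, 16005193 to 16006599, plus strand), a mitochondria-specific protein of the head, had 744, 669 and 619 in the controls and 875, 880 and 1053 in the knockdown (0.46, SE 0.12, adjusted p 0.0429). In each of these 3 genes the groups were separate. The fifth to rise was mRpS28 (0.35, adjusted p 0.0414).

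By position, 2 of 8 head genes rose with a median of 0.29, 0 of 7 body genes with a median of 0.25, and 1 of 4 platform genes with a median of 0.17. Proteins kept from bacteria had a median of 0.24 (3 of 15 rose) and those added in mitochondria 0.36 (2 of 10). mRpS35, another head protein, had 799, 583 and 556 normalized counts in the controls and 777, 840 and 808 in the knockdown (0.34, adjusted p 0.141). Here the groups overlapped through control replicate 1, and against that library alone the difference was 0.02.

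**Figure D3:**
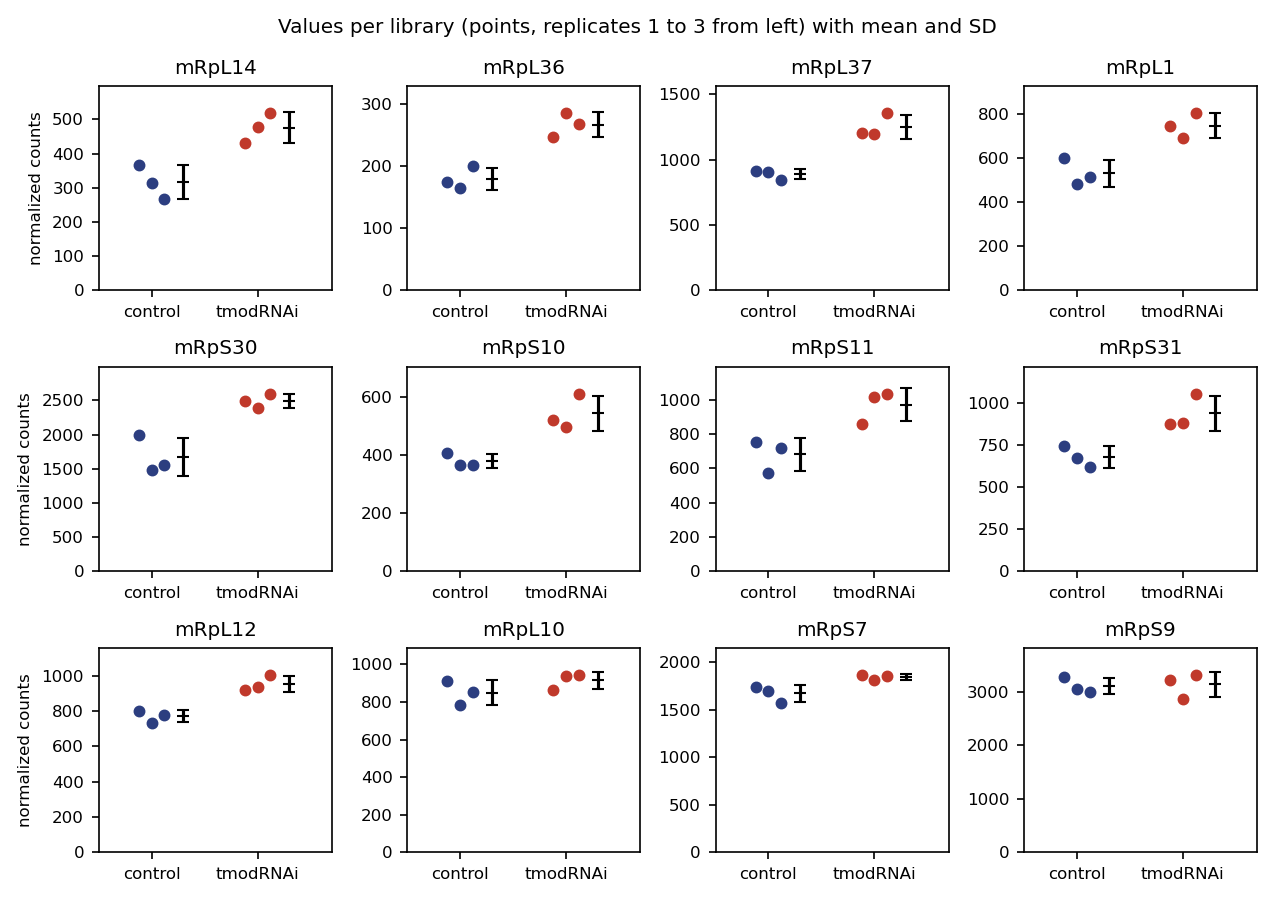
Normalized counts of 12 members in each library (points, replicates 1 to 3 from left) with the mean and SD of each group beside them. mRpL14, mRpL36, mRpL37, mRpL1, mRpL12, mRpS30, mRpS10, mRpS11 and mRpS31 have separate groups, whereas those of mRpL10 and mRpS9 overlap and those of mRpS7 are only narrowly apart.

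The fly has 3 genes of the mRpS18 family, whose bacterial relative S18 belongs to the platform. mRpS18A had 423, 315 and 351 normalized counts in the controls and 414, 453 and 551 in the knockdown (0.38, adjusted p 0.129). mRpS18B had 485, 467 and 507 in the controls and 561, 545 and 656 in the knockdown (0.27, adjusted p 0.11). mRpS18C had 248, 208 and 280 in the controls and 249, 263 and 286 in the knockdown (0.12, adjusted p 0.553). None of the 3 passed, only mRpS18B had separate groups, and the mammalian counterpart of mRpS18A lies in the large subunit. mRpS24, counterpart of the bacterial protein S3 at the mRNA entry, had 229, 187 and 190 in the controls and 276, 255 and 232 in the knockdown (0.33, adjusted p 0.128). Its groups did not overlap, but 55.3% of its exon bases lie within TBC1d7 on the other strand.

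A few members showed little difference, and their intervals lay wholly below the median of their subunit. These were mRpL19, mRpL22, mRpL33 and mRpL52 of 46 and mRpS9 of 25, named here because their values were seen. mRpL22 (X, 16783933 to 16785092, plus strand), which lines the exit tunnel in bacteria, had 1583, 1397 and 1482 normalized counts in the controls and 1402, 1400 and 1479 in the knockdown. Its log2 fold change was -0.06 (95% confidence interval -0.25 to 0.14, adjusted p 0.597), the lowest of the 71 members. mRpL19 had 979, 1060 and 1054 in the controls and 986, 1066 and 1021 in the knockdown (-0.01, interval -0.20 to 0.19). These libraries overlapped almost fully. mRpL52 had 908, 850 and 895 in the controls and 864, 865 and 925 in the knockdown (0.00, interval -0.19 to 0.20). mRpS9 (3R, 7889277 to 7902667, minus strand), a protein of the head whose bacterial relative reaches towards the tRNA, had 3270, 3042 and 2992 in the controls and 3216, 2866 and 3314 in the knockdown. Its log2 fold change was 0.01 (interval -0.19 to 0.22), and 25.1% of its exon bases lie within ArgRS-m.

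Levels are comparable between genes only per length. Over all libraries the large subunit's highest members per kb of exon were mRpL28 at 2721 and mRpL33 at 1737 normalized counts per kb. The lowest tested were mRpL21 at 275.9 and mRpL48 at 345. In the small subunit the highest were mRpS9 at 2411 and mRpS7 at 1921 and the lowest mRpS14 at 335 and mRpS24 at 380.1 normalized counts per kb. None of these 8 genes passed the threshold. Among the lowest, mRpL48, mRpS14 and mRpS24 share 27.7%, 35.8% and 55.3% of their exon bases with other genes, while mRpL21 shares 0%. What this overlap does to a level per kb was not tested.

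Among the abundant members, mRpL28 had 3271, 2804 and 3052 normalized counts in the controls and 3240, 3190 and 3545 in the knockdown (0.13, adjusted p 0.289). mRpL33 had 587, 556 and 638 in the controls and 606, 640 and 610 in the knockdown (0.06, interval -0.17 to 0.29). mRpS7, another head protein, had 1746, 1704 and 1576 in the controls and 1871, 1813 and 1860 in the knockdown (0.14, interval -0.03 to 0.32). The groups overlapped in mRpL28 and mRpL33 and were apart by a narrow margin in mRpS7.

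Among the scarce members, mRpL21 had 405, 440 and 427 in the controls and 462, 521 and 554 in the knockdown (0.27, adjusted p 0.109). mRpL48 had 284, 231 and 260 in the controls and 305, 268 and 289 in the knockdown (0.16, adjusted p 0.382). mRpS14 had 253, 225 and 292 in the controls and 254, 300 and 278 in the knockdown (0.12, adjusted p 0.563). mRpL21 had separate groups and the other two did not.

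mRpL53 was the 1 member that did not enter the test. It is listed at 0 in all 6 libraries, where 3 reads would have been 2.41 to 3.31 normalized counts. All of its 829 exon bases lie within the exons of CG33155 on the same strand, so the 0 says nothing about its transcription. CG33155 itself had 139, 144 and 159 normalized counts in the controls and 139, 241 and 191 in the knockdown. In all, 43 of the 72 members share exon bases with another gene, mostly on the other strand, and 10 of them over more than 10% of their exon bases. The members with and without such an overlap had medians of 0.28 (5 of 42 rose) and 0.33 (9 of 29). Of all tested genes 10.9% were called higher, a share close to that of the members with an overlap. Whether overlap bears on the calls was not tested.

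Control replicate 1 sat between the other controls and the knockdown for these genes too. It was the highest control for 36 of 46 large-subunit and 16 of 25 small-subunit genes. The median log2 difference of a library from the control mean was, for the large subunit, 0.09, -0.07 and -0.02 in control replicates 1, 2 and 3 and 0.28, 0.30 and 0.38 in knockdown replicates 1, 2 and 3. For the small subunit it was 0.08, -0.07 and -0.04 in the controls and 0.24, 0.23 and 0.32 in the knockdown.

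Set against control replicate 1 alone, the knockdown mean was higher by a median of 0.21 in the large subunit (44 of 46 genes above 0) and 0.17 in the small (23 of 25). Without control replicate 1, the medians were 0.36 and 0.28, and 28 of 46 and 11 of 25 genes rose, as did 22.5% of all tested genes. Leaving out any of the other 5 libraries left 0 of 46 and 0 of 25 past the threshold. Among all genes the calls then numbered 2 without control replicate 2, 59 without knockdown replicate 1 and 0 without control replicate 3 or knockdown replicates 2 or 3. The medians under those omissions, control replicate 1 included, stayed between 0.29 and 0.36 in the large subunit and between 0.26 and 0.31 in the small.

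**Figure D4:**
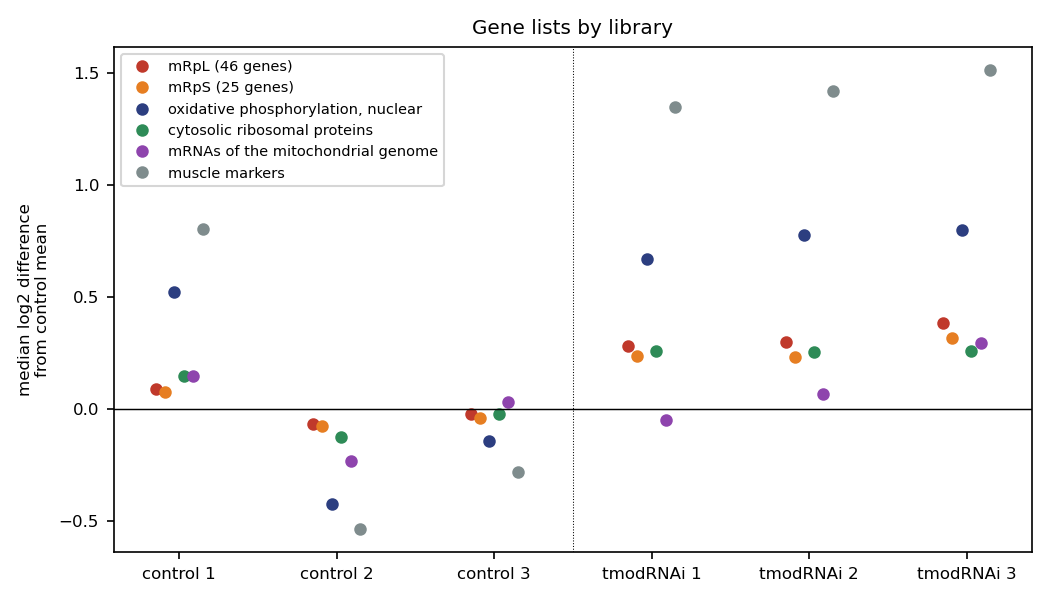
Median log2 difference from the control mean in each library for the large subunit, the small subunit and the gene lists set beside them. Both subunits rise little in control replicate 1 (0.09 and 0.08), whereas the nuclear oxidative phosphorylation genes reach 0.52 there.

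The nuclear genes of oxidative phosphorylation, the enzymes that carry out respiration, had larger differences in these libraries and followed control replicate 1 more closely. Of 65 tested, 11 rose and 0 fell, with a median of 0.74 and a range from 0.44 to 1.39. All 65 had a log2 fold change above 0, and 89.2% had all 3 knockdown values above all 3 control values. Their medians per library were 0.52, -0.42 and -0.14 in the controls and 0.67, 0.78 and 0.80 in the knockdown. Against control replicate 1 alone the median was 0.22, close to that of the large subunit, and without it 65 of 65 rose. Cytosolic ribosomal proteins, which make the ribosome outside mitochondria, had a median of 0.25, with 2 of 84 that rose (RpL31 and RpL34a) and 0 that fell. All 84 had a log2 fold change above 0, and in 65.5% every knockdown value lay above every control value. A broad small rise was therefore not particular to the mitochondrial ribosomal proteins. Without control replicate 1, 63 of the 84 rose. These differences between lists were not tested.

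The RNAs that the mitochondrial genome supplies did not pass. None of the 13 mitochondrially encoded mRNAs that this ribosome translates passed in either direction, with a median of 0.10 and a range from 0.00 to 0.65. The large ribosomal RNA had 4156660, 3994020 and 4078510 normalized counts in the controls and 3822160, 3976150 and 4194410 in the knockdown. Its log2 fold change was -0.03, with an interval from -1.22 to 1.16 that holds changes in either direction larger than any member's. That interval also draws on the variance that limma fitted over other genes, and the library values themselves lie much closer together. The small ribosomal RNA had 1774, 2321 and 1859 normalized counts in the controls and 1774, 1045 and 1138 in the knockdown (-0.62, adjusted p 0.0855). These counts are far below those of the large ribosomal RNA. Whether the counts follow the amount of either RNA was not tested.

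Of the small-subunit proteins under other names, tko (the S12 protein of the decoding centre) had 565, 546 and 518 normalized counts in the controls and 669, 657 and 599 in the knockdown (0.24, adjusted p 0.101). bonsai (the S15 protein) had 1036, 747 and 706 in the controls and 1063, 1012 and 1239 in the knockdown (0.43, adjusted p 0.107). tko had separate groups, bonsai overlapped through control replicate 1, and neither passed.

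Among 9 translation factors and related proteins of mitochondria, 1 rose, with a median of 0.24. It was mEFG1, the elongation factor that moves the mitochondrial ribosome along the mRNA, with 422, 368 and 363 normalized counts in the controls and 576, 591 and 702 in the knockdown (0.69, SE 0.12, adjusted p 0.0306). Its rise exceeded in size that of any mRpL or mRpS gene, though that difference was not tested. Of 8 genes for mitochondrial transcription and mtDNA upkeep 1 rose, mtRNApol, the mitochondrial RNA polymerase, with 717, 544 and 588 in the controls and 912, 847 and 977 in the knockdown (0.57, adjusted p 0.0356). Of 9 genes for mitochondrial mRNA handling 2 rose, bsf (0.50, adjusted p 0.0405) and PNPase (0.46, adjusted p 0.0491). Of 19 mitochondrial tRNA synthetases 2 rose, MetRS-m (0.56) and IleRS-m (0.41). Called higher were 11.1% of the translation factors, 12.5% of the transcription and mtDNA genes, 22.2% of the mRNA handling genes and 10.5% of the synthetases. Among all tested genes the share was 10.9%, so most of these shares were near it. The medians were 0.30 for transcription and mtDNA, 0.18 for mRNA handling and 0.14 for the synthetases. Of 3 tested genes for handling ribosomal RNA 0 passed, with a median of 0.03.

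Of 15 genes for protein import, the route by which all members enter the organelle, 3 rose: Tom40 (0.61, adjusted p 0.0349), the pore of the outer membrane, blp (0.48) and Tim8 (0.33). That is 20.0%, against 10.9% of all tested genes, with a median of 0.32. Of 10 regulators of mitochondrial or ribosome content 2 rose (20.0%) and 0 fell. As a list they did not lean upward: the median was -0.03 and 5 of the 10 were below 0. In 2 of the 10 every knockdown library lay below every control. srl, the fly PGC-1 homologue and a coactivator of mitochondrial genes, had 1892, 1884 and 2160 normalized counts in the controls and 3566, 2804 and 3167 in the knockdown (0.68, SE 0.11, adjusted p 0.0306). Control replicate 1 was not raised for this gene. Cdk4, a growth-promoting kinase in flies, was the other regulator that rose (0.82, adjusted p 0.0306).

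Marker genes moved beside these results. Of 18 muscle markers 9 rose and 0 fell, with a median of 1.44, a range from -0.53 to 2.81 and per-library medians of 0.80, -0.54 and -0.28 in the controls and 1.35, 1.42 and 1.51 in the knockdown. Mef2 (-0.53, adjusted p 0.0993) and Zasp66 (-0.44, adjusted p 0.0868) did not pass, but had every knockdown library below every control. Of 9 fat body markers 3 rose, with summed levels of 184441 to 276140 normalized counts in the controls and 320804 to 1008210 in the knockdown. Of 6 hemocyte markers 3 fell, of 8 neuron and glia markers 1 rose, and of 11 epidermis and cuticle markers 1 rose and 3 fell. None of the 7 salivary gland, 5 gut and 6 trachea markers passed, and 3 of 5 male germline markers rose. No marker on these lists with a tested level was at 0 in every library. The part of these cell types in the level of the mitochondrial ribosomal proteins was not tested.

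The size of the difference also rests on how libraries are scaled. When each library was divided by its total in place of the authors' factors, a scaling added after the data were seen, the median of all tested genes moved by -0.13. The large and small subunit then had medians of 0.19 and 0.14, with 39 of 46 and 20 of 25 genes above 0. Past the threshold were 0 and 1 of them, the latter mRpS30, while 7.25% of all tested genes were called higher and 9.65% lower. Relative to the median of all tested genes, the subunits stood at 0.29 and 0.25 under this scaling and at 0.30 and 0.25 under the authors' factors. As a share of all normalized counts, the 72 genes made up 527, 544 and 553 of every 1000000 in the controls and 588, 580 and 628 in the knockdown (542 ± 13.1 against 599 ± 25.9, SD, n = 3), again without overlap.

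**Figure D5:**
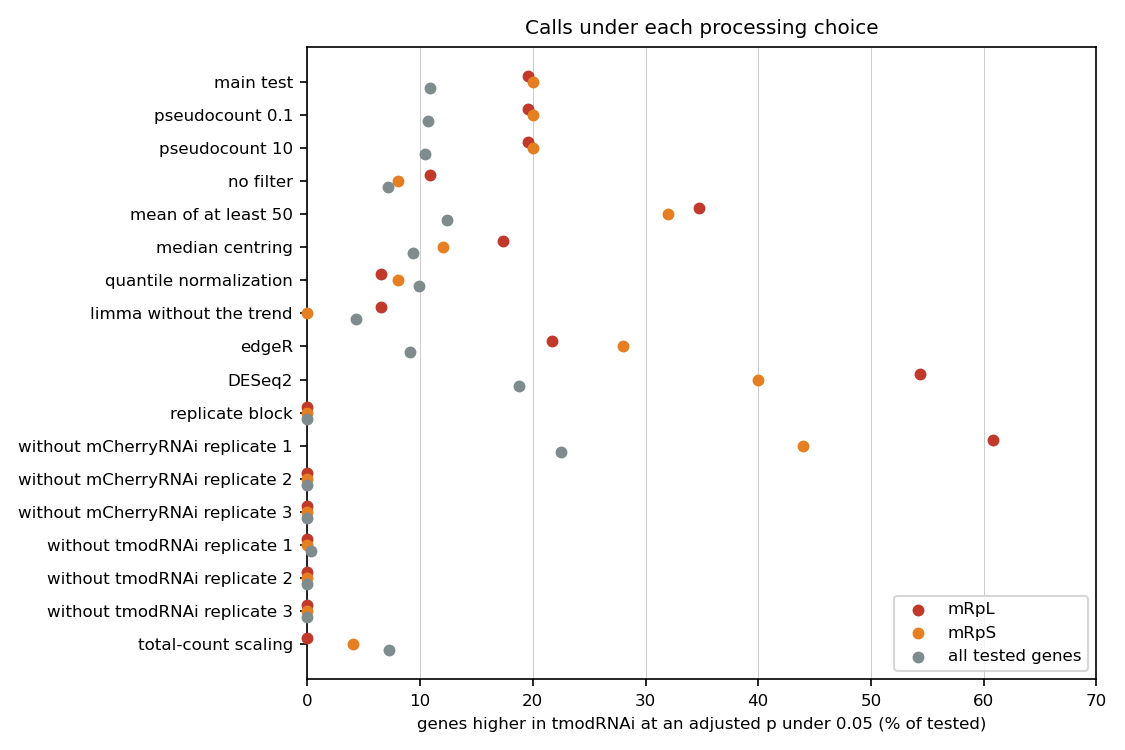
Share of tested large-subunit genes, small-subunit genes and all genes called higher in the knockdown at an adjusted p under 0.05 (x axis, percent of tested), under the reported test and each alternative. The reported shares are 19.6%, 20.0% and 10.9%; both subunits drop to 0 when any 1 library other than control replicate 1 is left out and are highest without control replicate 1.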

How the data were processed

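The values are normalized counts (a signal with no unit of reads) that the authors deposited as 1 table for all 6 libraries; per the submitters' processing notes DESeq2 1.30.1 and the dm6 genome were used. The aligner and the gene counter are not given in the sources used here. In every library 100% of the values came out whole (tolerance 0.01) when divided by the library's lowest non-zero one, so reads per gene had been divided by 1 factor per library. log2(normalized count + 1) was fitted with limma 3.58.1 (R 4.3.3, lmFit and eBayes with a trend, tmodRNAi against mCherryRNAi, two-sided) on the 10969 genes averaging 10 or more, with Benjamini-Hochberg adjustment over all of them. The script was tested on simulated data. Alternatives were edgeR 4.0.16 and DESeq2 1.42.0 on recovered reads, other pseudocounts, filters, scalings, a replicate block and leaving out each library. Gene positions and exon lengths come from the Ensembl BDGP6.54 annotation, in dm6 coordinates, in which 17710 of 17807 gene IDs were found; 21 rows had no symbol and were kept.

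The members, the comparison lists and the tests were chosen with earlier results of these data known. Members given by values are, in each subunit, the 4 largest rises past the threshold and the 2 highest and 2 lowest levels per kb, plus genes picked for their role. Precision is limited by 3 pools per group and by depth, and their shares were not tested. As for depth, 3 reads correspond to 2.41 to 3.31 normalized counts, and the lowest value of a tested member was 112. Reads carry no molecular identifiers and strand use in counting is not given, so overlapping genes on opposite strands may share reads.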

Additional observations from a re-analysis of the deposited data

How the results depend on the processing

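The 9 large-subunit, 5 small-subunit and 2613 total calls depended on the setting more than the direction did. Without a filter on low values 5 and 2 subunit genes passed, and with a mean of at least 50 there were 16 and 8. Median centring gave 8 and 3, quantile normalization 3 and 2, and limma without the trend 3 and 0 (of the small subunit 12 had an unadjusted p under 0.05), with 954 of all genes. edgeR called 10 and 7, and DESeq2 25 and 10, with 4364 of all genes; each of them included all 14 members called by limma. Scaling to the total count gave 0 and 1 (12 and 6 unadjusted). A fit with the replicate number as a block gave 0, 0 and 0 calls (unadjusted 19, 7 and 3969). Same-numbered deviations correlated at -0.06, 0.02 and -0.02 across genes, and differently numbered ones at -0.08 to 0.10. These values show no pairing by number, but with 3 libraries a group they cannot exclude it. Whether the fit with a block suits these libraries better was not tested. Leaving out 1 library gave 0 to 28 large-subunit, 0 to 11 small-subunit and 0 to 5203 total calls (unadjusted 14 to 31, 7 to 13 and 3227 to 5983), the highest without control replicate 1, where all 14 members stayed called. Why these counts moved was not tested.

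The median log2 fold changes of 0.32 and 0.27 fell to 0.24 and 0.18 under quantile normalization and to 0.19 and 0.14 under total-count scaling. Under quantile normalization the sign turned for 3 large- and 4 small-subunit genes: mRpL33 (-0.0372), mRpL48 (-0.0658), mRpL52 (-0.0683), mRpS6 (-0.115), mRpS14 (-0.0858), mRpS18C (-0.0936) and mRpS23 (-0.0955). Under total-count scaling it turned for 5 and 5: mRpL10 (-0.0221), mRpL28 (-0.0015), mRpL33 (-0.0695), mRpL43 (-0.013), mRpL52 (-0.13), mRpS6 (-0.049), mRpS9 (-0.118), mRpS14 (-0.0148), mRpS18C (-0.0065) and mRpS23 (-0.0849). Under median centring it turned for mRpL52 (-0.0514), mRpS9 (-0.0397) and mRpS23 (-0.0065), and under edgeR for mRpL19 (0.0112). With 1 library left out 0 to 3 members turned, among mRpL19, mRpL52, mRpS6 and mRpS9; mRpS9 ranged from -0.0296 to 0.0753. None of these was called under the setting that turned it. Over 442 comparisons of 26 members chosen for their size of change, level or role with their alternatives, 331 kept direction and call, 83 lost the call, 13 gained it and 15 turned. The lowest value of a tested member was 112 normalized counts. How far depth and the spread between 3 pools a group each set the width of the intervals was not tested.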
